A study of Mus musculus with 2 samples.

Results

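Transcript levels of 10 genes for transcription factors that set keratinocyte fate and differentiation were examined in mouse epidermis lacking the calcium-sensing receptor. The genes were Trp63, Tfap2a, Tfap2c, Cebpa, Cebpb, Klf4, Grhl1, Grhl3, Ovol1 and Barx2. They were taken by symbol, gene ID or transcript record from an annotated bead array table, and every probe of each gene was kept. This gave 17 probes, of which 14 were matched by gene ID and 3 by their transcript record, among 25697 probes on the array. Tfap2a, Tfap2c and Grhl1 stood in the table under the older names Tcfap2a, Tcfap2c and Tcfcp2l2. Klf4, Tfap2a and Tfap2c had 3 probes each, Grhl1 had 2, and the remaining 6 genes had 1 each.

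The knockout (KO) sample came from C57BL6 mice with floxed CaSR alleles (CaSR fl/fl) and Cre recombinase under the keratin 14 (K14) promoter, which is active in basal keratinocytes of epidermis and hair follicles. The control (CON) sample came from littermates with the same floxed alleles and no Cre listed. All mice were 5 days old, the epidermis was lifted from back skin with dispase, and the RNA of 3 mice per genotype went as a pool onto 1 Illumina bead array. With 1 sample in each group there was no test and no replicate error, and every ratio below describes this pair of pools.

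The epidermis is renewed from a basal layer whose cells stop dividing, move outward and become spinous, granular and finally cornified cells, and rising extracellular calcium is a classical trigger of that programme. Transcription factors divide this work. p63 and the AP-2 factors act in basal and early suprabasal cells, C/EBP factors accompany cell cycle exit and the start of spinous differentiation, and KLF4, the grainyhead-like factors and OVOL1 act in the later steps that build the barrier.

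In the KO sample 10802 probes (42.0%) were detected above background (detection p-value of at most 0.01), and in the CON sample 10888 (42.4%). These gave 8564 genes detected in at least 1 sample. Keratinocyte markers ranged widely in signal, with Krt14 among the bright ones at an intensity of 15114 in the KO and 17418 in the CON sample. At the low end, Itgb1 was detected in the CON sample alone (159.0 in the KO and 169.3 in the CON sample), and Dsg1a was not detected. Of 11 fibroblast and dermis markers 6 were detected, and of 6 endothelial markers 2, with Pecam1, Cdh5 and Kdr not detected. Of 6 skeletal muscle markers 5 were detected, with a summed intensity of 1124 in the KO and 1082 in the CON sample. The single Casr probe gave 148.2 in the KO and 122.9 in the CON sample, not above background in either (detection p-values 0.0639 and 0.891), so it gave no check of the genotypes. The protocol text calls the knockout pool VDR KO at one place, whereas the titles and genotype labels name CaSR, and these were followed.

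All 10 genes were detected in both pools by at least 1 probe, and the differences between the pools were small. With each gene represented by its brightest probe, 5 genes had a higher and 5 a lower signal in the KO sample (7 and 3 without scaling between arrays). The median log2 ratio (KO over CON) was -0.03, against 0.01 over all detected genes (0.06 and 0.09 without scaling). Of all detected genes 47.5% had a log2 ratio below 0. The median distance between the pools was 1.07-fold for the 10 genes and 1.06-fold for all genes. Of the 10 genes 0 were at least 1.5-fold higher in the KO sample, a difference found for 0.187% of all 8564 genes, and 0 were at least 1.5-fold lower, found for 0.234%. At 1.2-fold, 1 gene was higher (Tfap2c, with 2.91% of all genes called) and 1 was lower (Cebpa, with 2.95% of all genes called). The 2 genes past 1.2-fold thus lay in opposite directions. The call of Cebpa was lost before normalization, with or without equal medians (-0.21 without scaling), and that of Tfap2c with the mean over probes (0.08).

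A scale for the precision within these arrays came from genes with several detected probes. Across 2038 such genes the SD between the ratios of probes for one gene, pooled, was 0.11 on the log2 scale, and 2 SDs are 1.17-fold. It measures neither the variation between pools nor that between hybridisations. Tfap2c and Cebpa lay beyond 2 SDs (9.65% of all genes did), and the other 8 genes lay within them on their brightest probe.

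**Figure D1:**
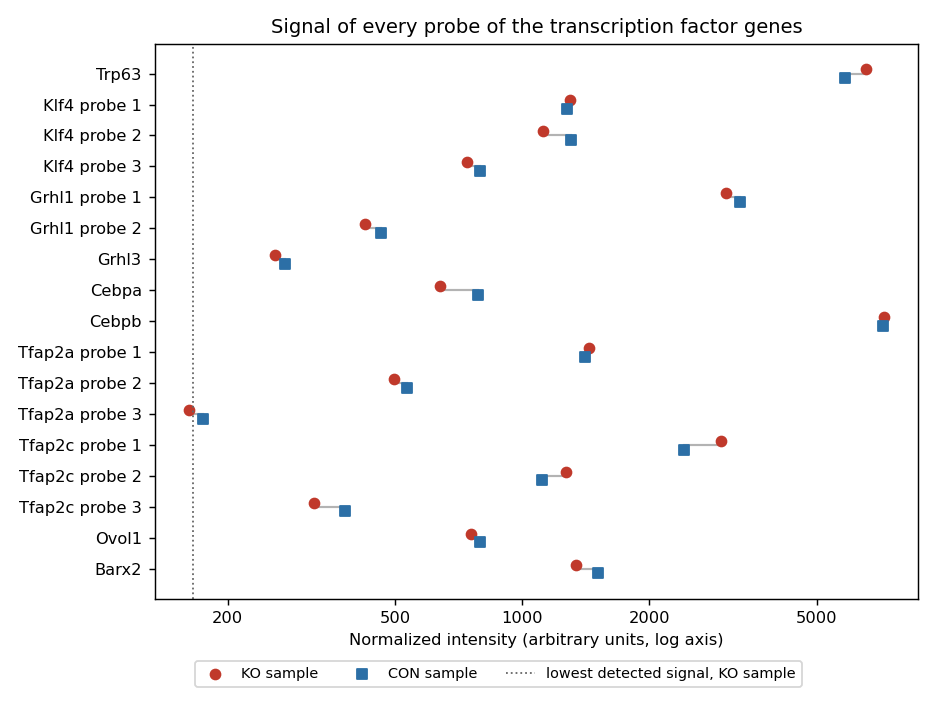
Normalized intensity (arbitrary units, log axis) of all 17 probes in the KO (circles) and CON (squares) sample, 1 array each, with probes of a gene ordered so that the brightest comes first. The symbols of most probes nearly coincide, the widest gaps are at Cebpa and at the first and last Tfap2c probe, and the third Tfap2a probe lies at the dotted line that marks the lowest detected signal of the KO array.

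Tfap2c, which encodes AP-2 gamma, a factor of basal keratinocytes that also acts in early epidermal commitment, had the highest ratio of the 10 genes and the least agreement between its probes. Its brightest probe (ILMN_2783225) had an intensity of 2958 in the KO and 2422 in the CON sample, 1.22-fold higher in the KO sample (log2 ratio 0.29). Its next probe (ILMN_2783226) had 1267 in the KO and 1112 in the CON sample, 1.14-fold higher (log2 ratio 0.19). The third (ILMN_1231632) had 319.9 in the KO and 380.5 in the CON sample, 1.19-fold lower (log2 ratio -0.25). A pair of probes thus placed Tfap2c higher in the KO sample and the dimmest placed it lower, although all 3 were detected in both samples and were designed from the same transcript record.

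The spread of 0.54 between the highest and lowest log2 ratio of Tfap2c was wide for a gene with 3 detected probes. Over the 486 genes with 3 detected probes the median spread was 0.17 and the 95th percentile 0.36, and 1.03% of them had a spread as wide as that of Tfap2c. Ratios of both signs were common in such genes (63.2%). Averaged over its 3 probes Tfap2c had a log2 ratio of 0.08. With the background removed and the arrays normalized anew, the brighter pair had 0.28 and 0.21 and the dimmest -0.40, a wider disagreement. RefSeq lists 5 transcripts of Tfap2c, and which of them each probe reads was not examined here.

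Tfap2a, which encodes AP-2 alpha, the other AP-2 factor studied here, differed less. Its brightest probe had 1436.5 in the KO and 1405.8 in the CON sample (log2 ratio 0.03), and the next had 496.9 in the KO and 533.8 in the CON sample (-0.10). The third probe, with 162.1 in the KO and 174.5 in the CON sample, was detected in the CON sample alone and gave a bound of at least 1.05-fold lower. The spread of 0.13 between its probes was below the median for genes with 3 probes, and the mean over probes was -0.05, so the sign of Tfap2a depended on the probe. Of the relatives, Tfap2b had log2 ratios of 0.07, 0.02 and -0.07 on its 3 detected probes and Tfap2e -0.02, while Tfap2d was not detected.

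**Figure D2:**
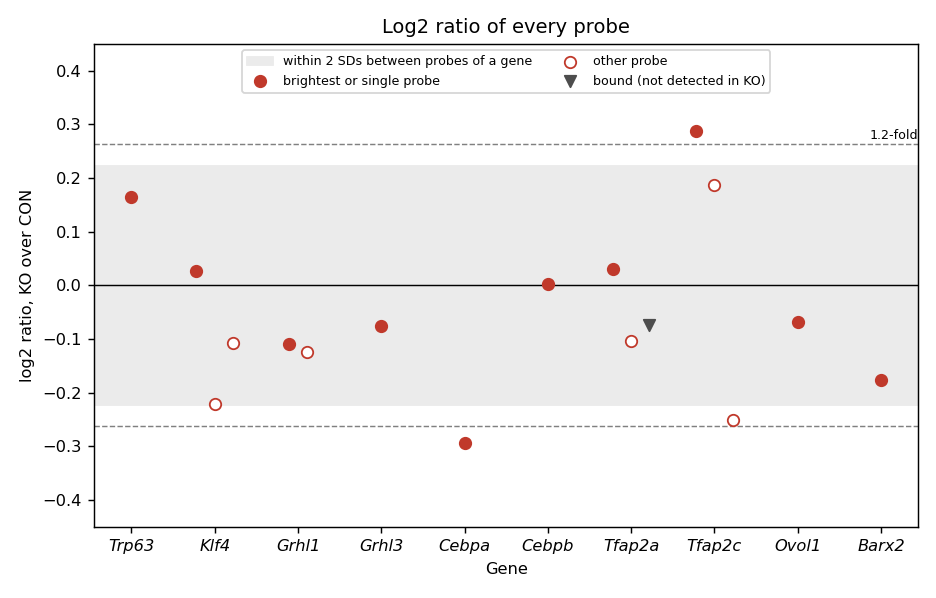
Log2 ratio (KO over CON) of all 17 probes by gene. Filled circles are the brightest or single probe of a gene, open circles its other probes and the triangle a bound, the grey band spans 2 pooled SDs between probes of a gene (0.22 either side of 0), and dashed lines mark 1.2-fold. Tfap2c has probes above and below the band, and Cebpa lies at -0.29.

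Trp63 encodes p63, the p53 relative on which the stratified epithelium and its basal cells depend. Its single probe (ILMN_1216742) had 6548 in the KO and 5839 in the CON sample, 1.12-fold higher in the KO sample (log2 ratio 0.17). It was brighter than 98.1% of detected probes. The ratio stayed between 0.16 and 0.22 in all 7 settings tried (the normalized table and 6 other ways of processing). Some of these ways (no floor, a detection p-value of at most 0.05, the mean over probes) cannot change the ratio of a bright single probe. A difference at least as far above 0 as that of Trp63 was found for 10.3% of all genes. RefSeq lists 11 transcripts of Trp63. The array had no other Trp63 probe, so the forms with and without the full transactivation domain, which differ at their start, could not be told apart. Its relatives Trp53 and Trp73 had a log2 ratio of -0.08 and a bound of -0.02.

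Genes under p63 control did not share a direction. Of 18 detected members of a list of such genes 9 lay above and 9 below 0 (median log2 ratio 0.01, 13 and 5 without scaling). Of them 0 were at least 1.2-fold higher and 1, Krt5, was at least 1.2-fold lower (2.91% and 2.95% of all genes). Krt5 did not reach 1.2-fold before normalization, or with the background removed and the arrays normalized anew. Itga6 was 1.2-fold higher with the background removed (10.5% of all genes were). Without scaling Itga6, Itgb4 and Satb1 were 1.2-fold higher (10.9% of all genes). With the mean over probes Cdkn1a was also 1.2-fold lower (2.66% of all genes). The basal keratin gene Krt5 had 16377 in the KO and 19907 in the CON sample (log2 ratio -0.28), and its partner Krt14 had a log2 ratio of -0.20. The integrin genes of the hemidesmosome, Itgb4 and Itga6, had 0.17 and 0.16, with 0.005 on the other Itgb4 probe.

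Cebpa encodes C/EBP alpha, a leucine zipper factor that together with C/EBP beta drives basal keratinocytes out of the cell cycle and into differentiation, and that also acts in sebocytes and adipocytes. Its single probe (ILMN_1247147) had 639.2 in the KO and 783.3 in the CON sample, 1.23-fold lower in the KO sample (log2 ratio -0.29), the lowest ratio of the 10 genes. A ratio as low was found for 2.10% of all genes. The ratio of Cebpa lay between -0.37 and -0.21 over the settings that can change a bright single probe. The lower value came with the background removed and the upper without scaling between arrays.

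Cebpb, which encodes C/EBP beta, had 7199 in the KO and 7186 in the CON sample (log2 ratio 0.003). The gap between this related pair of C/EBP genes was 0.30 on the log2 scale, each read by a single probe. Among genes with 2 detected probes, the 95th percentile of the spread between probes of one gene was also 0.30. Among other C/EBP family genes the brightest probe of Ddit3, a stress-induced relative, had 264.0 in the KO and 303.8 in the CON sample (-0.20, and -0.10 on its other probe), and Cebpg had 0.04. Of 10 detected genes under C/EBP control 4 lay above and 6 below 0 (median -0.03). Without scaling 5 lay on either side (median 0.03). The cornified envelope precursor gene Ivl had the lowest log2 ratio of these (-0.49) and the spinous keratin gene Krt10 the highest (0.22). Elovl3, a fatty acid elongase gene, had 0.21, and Cdkn1a, a cell cycle inhibitor gene, had -0.18 on its brightest probe and -0.37 and -0.36 on its others.

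The sequences before the start sites of Cebpa and Cebpb are shown for this related pair, whose gap of 0.30 was not tested. They are the 250 bases 5′ of the RefSeq start, from the build GRCm38.p6, both on the plus strand, at chr7:35119043-35119292 for Cebpa and chr2:167688665-167688914 for Cebpb, written 5′ to 3′ with matches to the searched motifs in capitals.
Cebpa: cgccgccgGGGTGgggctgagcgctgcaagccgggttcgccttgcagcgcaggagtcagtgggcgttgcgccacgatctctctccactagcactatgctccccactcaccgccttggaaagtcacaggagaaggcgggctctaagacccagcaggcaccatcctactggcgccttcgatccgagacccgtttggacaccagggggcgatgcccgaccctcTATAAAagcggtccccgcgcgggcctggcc
Cebpb: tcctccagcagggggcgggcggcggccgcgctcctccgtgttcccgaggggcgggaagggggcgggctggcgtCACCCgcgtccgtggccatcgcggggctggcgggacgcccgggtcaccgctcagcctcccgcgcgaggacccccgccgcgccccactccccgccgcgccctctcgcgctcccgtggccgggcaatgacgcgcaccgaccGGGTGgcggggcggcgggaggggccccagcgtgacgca

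The motifs searched on both strands were CACCC (bound by KLF factors), GCCNNNGGC (AP-2), TTGCNNAA (C/EBP), AACNGGTT (grainyhead-like) and TATAAA (the TATA box). Cebpa had a CACCC match beginning 242 bases before the start and a TATAAA match beginning 30 bases before it, and Cebpb had CACCC matches beginning 177 and 38 bases before its start. CACCC occurs in 52.0% and TATAAA in 12.4% of 32851 such windows of mouse genes, so these matches are common. Windows were found for 6 of the 10 genes (8 windows in all, Grhl1 and Tfap2a having 2 each). The AP-2 letters occurred in the window of Klf4 (GCCGCCGGC) and in 1 window of Grhl1 (GCCTTGGGC), against 13.7% of all windows, and the C/EBP and grainyhead-like letters in 0 of the 8 (9.56% and 1.79% of all windows). Matches of letters describe the sequence and say nothing of binding.

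Klf4 encodes a zinc finger factor needed for the epidermal barrier, and its 3 probes pointed in both directions. The brightest (ILMN_2999439) had 1298.5 in the KO and 1274.1 in the CON sample (log2 ratio 0.03). The next (ILMN_1241903) had 1121 in the KO and 1306 in the CON sample (-0.22), and the third (ILMN_1221264) had 738.1 in the KO and 795.5 in the CON sample (-0.11). Brightness separated the first from the next by little, since the order of these probes turned round between the samples. Averaged over probes Klf4 had a log2 ratio of -0.10, so the choice of probe set its sign. RefSeq lists 1 transcript of Klf4 and all 3 probes were designed from it. A spread as wide as that of Klf4 (0.25) was found for 22.2% of genes with 3 detected probes.

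The 12 detected genes under KLF4 control lay 6 above and 6 below 0 (median -0.004). Among them Ivl had the lowest log2 ratio (-0.49) and Krt10 the highest (0.22). Cdsn, which encodes corneodesmosin, had 9983 in the KO and 12190 in the CON sample (log2 ratio -0.29). It had -0.21 with the background removed and the arrays normalized anew, and -0.16 without scaling, both short of 1.2-fold. Sprr2d, a small proline-rich envelope protein gene, had 0.19 (0.45 with the background removed). Other KLF genes had ratios on both sides of 0. Klf5, which acts in proliferating keratinocytes, had -0.10, Klf6 0.04, Klf3 0.06 and Klf13 -0.15.

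Grhl1 was the gene whose probes agreed best. Its product, a grainyhead-like factor, is needed for normal desmosomes and hair anchoring. Its brighter probe (ILMN_1246419) had 3048 in the KO and 3289 in the CON sample (log2 ratio -0.11), and its other (ILMN_2727118) had 424.5 in the KO and 462.6 in the CON sample (-0.12). The spread between them was 0.01, against a median of 0.10 over 1447 genes with 2 detected probes. Both ratios stayed below 0 in every setting, at -0.02 each without scaling between arrays.

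Grhl3, a grainyhead-like factor required for barrier formation and wound repair, had 259.0 in the KO and 272.8 in the CON sample (log2 ratio -0.07), and its ratio turned to 0.001 without scaling. Grhl2, the relative active in simple and stratified epithelia, had 635.7 in the KO and 569.4 in the CON sample (0.16), opposite in sign to Grhl1 and Grhl3. Of 12 detected genes under grainyhead-like control, 3 lay above and 9 below 0 (median -0.07), while 6 lay on either side without scaling (median 0.003). The transglutaminase gene Tgm5 had 718.2 in the KO and 1005 in the CON sample (-0.48, and between -0.43 and -0.14 on its other probes), and Rab25, a small GTPase gene, had -0.25. In the other direction the exchange factor gene Arhgef19 had 582.1 in the KO and 452.1 in the CON sample (0.36), and Cdh1, which encodes E-cadherin, had 0.13.

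Ovol1 encodes a zinc finger repressor that restrains the proliferation of cells entering differentiation. Its probe (ILMN_2617858) had 756.4 in the KO and 793.4 in the CON sample (log2 ratio -0.07), which turned to 0.02 without scaling between arrays. Myc, which OVOL1 represses, was detected in the KO sample alone (179.5, against 162.6 in the CON sample), a bound of at least 1.09-fold higher. Zeb1, another listed target, had a log2 ratio of -0.12 near the detection limit. With the background removed Myc had 0.39 and Zeb1 -0.37. The spinous keratin gene Krt1 had 0.11, Id2 had -0.06 (0.02 without scaling), and the relative Ovol2 had 0.03. Of the 6 detected genes in the list of OVOL1 targets 3 lay above and 3 below 0 (4 and 2 without scaling).

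Barx2, a homeobox gene active in hair follicles, had 1338 in the KO and 1512 in the CON sample on its single probe (ILMN_2676217), 1.13-fold lower in the KO sample (log2 ratio -0.18). A ratio as low was found for 8.79% of all genes. The ratio of Barx2 lay between -0.20 and -0.09 over the settings that can change a bright single probe. Barx1 was not detected.

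**Figure D3:**
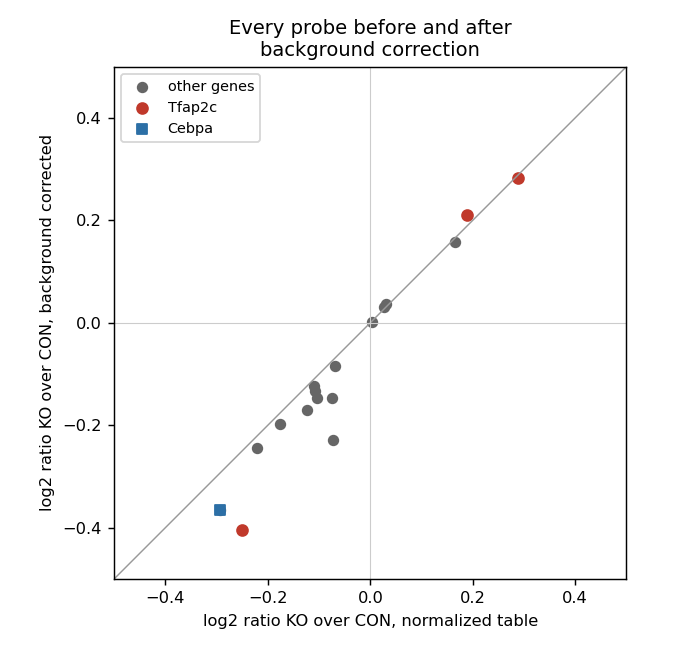
Log2 ratio (KO over CON) of the 17 probes from the normalized table (horizontal axis) and after background correction with a new normalization (vertical axis), with the line of equal values. The dimmest Tfap2c probe (-0.25 and -0.40), the dimmest Tfap2a probe (-0.07 and -0.23) and Cebpa (-0.29 and -0.37) lie farther from 0 after correction.

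Markers of the granular layer, sebocytes, adipocytes, hair follicles and T cells also had lower medians in the KO sample, beside the lower ratios of Cebpa and Barx2, and those of Langerhans and myeloid cells had a higher one. In bulk RNA, fewer cells of a type and less RNA per cell cannot be told apart. Of 11 detected granular layer markers 10 lay below 0 (median log2 ratio -0.14, or -0.05 with 8 below 0 without scaling), with a summed intensity of 74128 in the KO and 82338 in the CON sample. Of 6 sebocyte markers 4 lay below 0 (median -0.17, or -0.08 without scaling, summed intensity 31566 in the KO and 32734 in the CON sample), with the wax synthase gene Awat2 at -0.50, the melanocortin receptor gene Mc5r at 0.43 and Krt79, the brightest of them, at 0.12. Among 5 adipocyte markers Adipoq, Fabp4 and Plin1 were not detected. Cfd was dim, with 227.1 in the KO and 291.0 in the CON sample (-0.36). Lep was detected in the CON sample alone, a bound of at least 1.08-fold lower. All 5 detected T cell markers lay below 0 (median -0.14, or -0.03 with 3 below 0 without scaling, summed intensity 3190 in the KO and 3456 in the CON sample). All 7 detected Langerhans and myeloid markers lay above 0 on their brightest probes (median 0.12, summed intensity 14586 in the KO and 13870 in the CON sample), or 6 with a median of 0.02 by the mean over probes. Of 7 detected hair follicle markers 5 lay below 0 (median -0.21, or -0.11 with 4 below 0 without scaling, summed intensity 22597 in the KO and 27211 in the CON sample). In this list Krt71 had -0.40, Sox9 0.17 and Shh 0.38 (255.7 in the KO and 196.1 in the CON sample). The 10 detected basal markers had a median of -0.03 beside the higher ratio of Trp63, and 9 spinous markers one of -0.05, which turned to 0.02 and 0.04 without scaling. The part of these cells in the ratios of Cebpa, Barx2 and Trp63 was not tested.

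Genes under AP-2 control lay on both sides of 0. Of 9 detected members of that list 4 lay above and 5 below 0, with 3 at least 1.2-fold lower (Cebpa, Krt5 and Ivl, with 2.95% of all genes called) and 0 at least 1.2-fold higher (2.91%). Without scaling Ivl alone was 1.2-fold lower (1.26% of all genes), and Egfr and Sox9 were 1.2-fold higher (10.9% of all genes). The list's median of -0.14 turned to -0.03 without Cebpa. Egfr, which encodes the EGF receptor, had 0.18 on its brightest probe and between -0.12 and 0.02 on its others, and Sox9, a stem cell factor of the hair follicle, had 0.17.

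The wider set of epidermal transcription regulators centred on 0 after normalization. Of 35 detected genes 16 lay above and 19 below 0 (27 and 8 without scaling, median log2 ratio -0.005), with 1 at least 1.2-fold higher and 2 at least 1.2-fold lower (2.91% and 2.95% of all genes). Junb, an AP-1 subunit that restrains keratinocyte proliferation, had 1132 in the KO and 1421 in the CON sample (-0.33), and Jund, its relative, had 266.7 in the KO and 321.7 in the CON sample (-0.27). Without scaling neither reached 1.2-fold (-0.22 each), and with equal medians Jund did not (-0.26), while with the background removed Jund had -0.49. Hoxc13, a regulator of hair keratin genes, had 314.7 in the KO and 247.2 in the CON sample (0.35), and 0.66 (1.57-fold) with the background removed. Among 15 detected family relatives of the 10 genes, 7 lay above and 8 below 0 (12 and 3 without scaling). Of these relatives 0 were at least 1.2-fold higher and 0 lower (2.91% and 2.95% of all genes). Grhl2 and Ubp1 were 1.2-fold higher without scaling, as were 10.9% of all genes. Ddit3 was 1.2-fold lower, at -0.37, with the background removed, as were 10.2% of all genes. The highest ratio was that of Ubp1, a grainyhead relative, at 0.17.

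**Figure D4:**
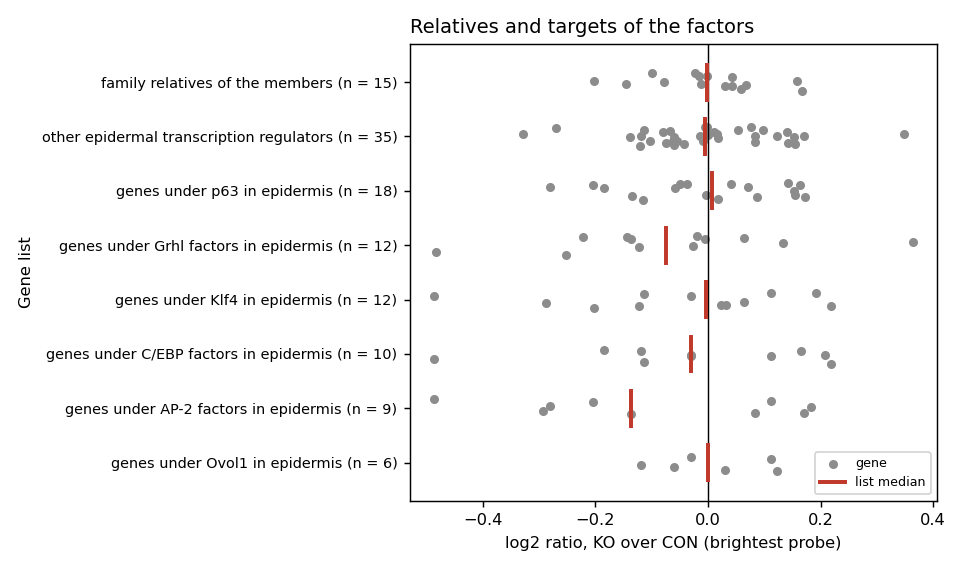
Log2 ratio (KO over CON, brightest probe) of each detected gene (grey points) in 8 lists of relatives, other regulators and targets of the factors, with the list median as a red bar and the number of detected genes in brackets. Each list spans 0, and the medians lie between -0.14 (AP-2) and 0.01 (p63), or between -0.05 and 0.09 without scaling between arrays. Some genes belong to several lists.

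The split of higher and lower calls depended on scaling. After normalization 249 genes were at least 1.2-fold higher and 253 lower in the KO sample. Before normalization the split was 936 and 108 without scaling and 562 and 174 with equal medians, and at 1.5-fold it was 34 and 16 without scaling, against 16 and 20 in the normalized table. The KO array was the brighter one before normalization (median intensity 166.1 in the KO and 161.3 in the CON sample). The median log2 ratio of all genes was 0.01 after normalization, 0.09 without scaling and 0.05 with equal medians. Counts and medians without scaling in the paragraphs above carry this shift of all genes. Without scaling Tfap2c had a log2 ratio of 0.36 and Cebpa of -0.21, so both kept their sign.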

How the data were processed

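The authors deposited linear intensity values from Illumina bead arrays before and after normalization, per the file headers, and the submitters' processing notes name GenomeStudio 2011.1. How they normalized is not stated in the sources used here. Ranked intensities of the 2 arrays match within 0.172% after it, and background remains (lowest value 106.2 in both arrays), which shrinks ratios at weak probes. The deposited detection p-value was used at 0.01. The number of arrays limits the precision.

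Normalized intensities were raised to the lowest detected signal of each array (165.9 for KO, 164.9 for CON) and log2 transformed, and a gene took its probe with the highest mean signal. Symbols were updated through RefSeq (GRCm38.p6) for 24356 probes, and 1341 kept the file's symbol. Promoter windows are from RefSeq. Background correction used neqc of limma 3.58.1 in R 4.3.3 on the intensities before normalization. It also quantile normalizes the arrays anew, so values given with the background removed differ from the main ones in both steps. The ratio procedure was tested on simulated data. The named genes were the 10 members with all probes, Casr, and the 2 highest and 2 lowest detected genes of each of 8 lists, and other genes were named after their values were seen. Members and lists were chosen with earlier results of these data known.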

Additional observations from a re-analysis of the deposited data

How the results depend on the processing

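No paired analysis was possible because each group held 1 sample. The 6 alternatives were background correction, the table before normalization without scaling or with equal medians, no floor, a detection p-value of at most 0.05, and the mean over probes. Counts of members at least 1.5-fold apart were 0 in each of them, and the median of the 10 genes stayed within 0.11 (1 SD between probes of a gene) of its value. At 1.2-fold 1 member was higher and 1 lower, with 5.86% of all genes apart. Signs turned for Grhl3 (to 0.001) and Ovol1 (to 0.02) without scaling, and for Klf4 (to -0.10) and Tfap2a (to -0.05) with the mean over probes, which also took Tfap2c to 0.08, under 1.2-fold. Without scaling the median log2 ratio of all genes was 0.09, and Klf4, Tfap2a and Tfap2c each had probes with ratios of both signs. Why those probes differed was not tested. Without scaling, and also with equal medians, Cebpa no longer reached 1.2-fold. With the background removed and the arrays normalized anew, 116 genes were at least 1.5-fold higher and 111 lower (16 and 20 in the normalized table). Removal of a constant background widens the ratios of dim probes, and the part of each step was not tested. Signals near background limit Grhl3, Hoxc13, Jund, Sprr2d, Myc, Zeb1, Shh, Cfd, Lep and the dimmest Tfap2a probe. Weak signals also limit the dimmest Tfap2c probe, Itga6, Ddit3 and Mc5r.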
